A study of Mus musculus with 8 samples.

Results

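The 10 genes described here encode cyclic nucleotide phosphodiesterases of striatum: Pde1a, Pde1b, Pde1c, Pde2a, Pde4a, Pde4b, Pde4d, Pde7b, Pde8b and Pde10a. They were chosen by symbol from a gene table of 55032 genes, in which each symbol has 1 row. RNA was sequenced from striatum dissected at postnatal day 60 from 4 female wild type (WT) mice and 4 female 16p11.2+/- mice, both on the C57BL/6 background. The 16p11.2+/- mice carry a heterozygous deletion of the chromosome 7 segment that matches the human 16p11.2 region, in all cells, and no mouse received a treatment. Each mouse was a separate library, named here by its label (WT-1015, WT-1041, WT-1061 and WT-1063, and DF-1018, DF-1037, DF-1059 and DF-1062 for the 16p11.2+/- mice). Library totals lay between 15125051 and 16523429 counts per mouse, and the 10 phosphodiesterases had between 89 and 25617 counts each per mouse. Levels are given as FPKM, the count scaled to gene length and to the total count of the mouse, so that different genes are compared per base. For the 10 genes this length is that of all annotated exons joined, which can exceed that of the transcript expressed. The order of genes by FPKM therefore depends on it.

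Phosphodiesterases hydrolyse cAMP and cGMP, the second messengers that adenylyl and guanylyl cyclases make, and so set how long and how far a signal from a receptor reaches in the cell. In the striatum, dopamine and adenosine receptors of the medium spiny neurons (MSNs), the projection neurons that make up most of its neurons, raise or lower cAMP through G proteins. PDE10A is known for its high level in MSNs and hydrolyses both nucleotides, and PDE1B is a calmodulin-dependent enzyme that is also abundant in these neurons. The PDE1 enzymes and PDE2A also accept both nucleotides, with PDE1 activated by calcium and calmodulin and PDE2A by cGMP, while the PDE4, PDE7 and PDE8 enzymes are specific for cAMP.

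Before the levels are described, the tissue and genotype of each library were examined. Levels of 12 MSN markers were combined into a score, the average of their log2 CPM, which is the count relative to library size. This score was 7.72, 7.26, 7.82 and 7.12 in the mice WT-1015, WT-1041, WT-1061 and WT-1063, and 7.81, 5.96, 7.62 and 5.64 in DF-1018, DF-1037, DF-1059 and DF-1062. The 16p11.2+/- mice DF-1037 and DF-1062 therefore stood apart from the other 6, whose scores were all above 7.1. The summed FPKM of the 12 markers was between 817 and 1381 in those 6 mice, 335.5 in DF-1037 and 293 in DF-1062. None of the 12 markers was at 0 in any mouse, and Penk, which encodes proenkephalin, was the most abundant, with an FPKM of 111 in DF-1037 and 115 in DF-1062 and between 266 and 456 in the other mice. Pdyn differed less, with 17.8 in DF-1037, 22.95 in DF-1062 and between 18.6 and 29.8 in the other mice. Markers of thalamic neurons (8 genes) differed in another way: their score was 2.62, 2.33, 2.80 and 6.46 in the WT mice and 5.62, 6.58, 3.24 and 5.76 in the 16p11.2+/- mice, in the order above. Their summed FPKM was 17.8, 21.6, 14.1 and 202 in the WT mice and 109, 212, 20.6 and 144 in the 16p11.2+/- mice. Prkcd was the most abundant, and Shox2 had no count in WT-1041. Cortical glutamatergic neuron markers (8 genes, led by Slc17a7) had scores of 5.07, 5.23, 4.22 and 2.36 in WT and of 1.77, 5.83, 4.27 and 2.39 in 16p11.2+/- mice. Their summed FPKM was 101.5, 122, 52.8 and 36.5 in WT and 21.6, 176, 49.5 and 24.6 in 16p11.2+/- mice, and Emx1 had no count in DF-1018. Choroid plexus markers (6 genes, led by Ttr) were highest in WT-1063, with a score of 7.35 against 0.61 to 4.64 in the other mice. Among them Kcnj13 had no count in WT-1041 and DF-1018. Over the 8 mice the scores of oligodendrocyte markers ranged from 7.49 to 8.49, those of astrocytes from 7.87 to 8.16, those of microglia from 3.90 to 4.79 and those of endothelial and mural cells from 4.82 to 5.51. Lower levels of MSN markers can stand for fewer MSNs in the piece or for less of their RNA per cell, which cannot be told apart in bulk tissue. The genotype labels were examined on 12 genes of the deleted segment. Of these, 8 were lower in 16p11.2+/- mice by the count test described below, which 0.109% of all genes passed in either direction. The median log2 fold change over the 12 was -0.99. Taok2 had an FPKM of 17.1, 18.2, 18.8 and 16.99 in WT and of 8.91, 8.995, 9.04 and 9.82 in 16p11.2+/- mice, in the order above. For 9 of the 12 genes each 16p11.2+/- mouse, DF-1037 and DF-1062 included, was below every WT mouse. Group ranges were apart, in either direction, for 2.83% of all genes tested. Among the 12, the ranges overlapped for Prrt2, Doc2a and Coro1a, the last of which was at 8.69 FPKM in DF-1037 and at most 5.42 in the other 16p11.2+/- mice, compared with 8.16 to 13.7 in WT mice. Counts were low for Prrt2 (6 to 26 per mouse) and Doc2a (6 to 99). Of the exon bases of Prrt2, 92.4% overlap Gm42742 on the same strand. For Doc2a, 39.4% overlap Ino80e on the opposite strand. An effect of these overlaps on the counts was not tested. None of the 10 phosphodiesterase genes lies in the deleted segment.

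The promoters of Pde10a, Pde1b and Pde7b, which had the smallest adjusted p of the 10 in the test against MSN markers described below, are shown with that of Pde4a, which did not pass the same test. The 150 bases before a start site are printed from 5′ to 3′ on the strand of the gene, from RefSeq with the build GRCm38.p6, and capitals mark GC boxes (GGGCGG or its reverse complement CCGCCC) and the half-site of the cAMP response element (TGACG or CGTCA). Start sites are those listed in the RefSeq set used, and an annotated gene can extend further upstream. Pde10a is shown for the first of 2 listed (chr17:8801595-8801744, plus strand) and Pde1b for the first of 3 (chr15:103502884-103503033, plus strand). Pde7b is shown for the only 1 listed (chr10:20548329-20548478, minus strand) and Pde4a for a later of its 3 (chr9:21183951-21184100, plus strand). In GENCODE M21 the gene of Pde10a begins at 8525372 and that of Pde7b at 20725078, both upstream of the windows shown. Whether those starts are used was not tested.
Pde10a: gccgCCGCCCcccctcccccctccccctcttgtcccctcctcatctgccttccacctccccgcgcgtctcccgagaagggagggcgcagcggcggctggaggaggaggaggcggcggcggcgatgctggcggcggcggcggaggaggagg
Pde1b: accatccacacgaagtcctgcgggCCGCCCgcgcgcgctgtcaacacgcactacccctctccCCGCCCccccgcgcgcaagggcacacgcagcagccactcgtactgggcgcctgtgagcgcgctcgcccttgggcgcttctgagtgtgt
Pde7b: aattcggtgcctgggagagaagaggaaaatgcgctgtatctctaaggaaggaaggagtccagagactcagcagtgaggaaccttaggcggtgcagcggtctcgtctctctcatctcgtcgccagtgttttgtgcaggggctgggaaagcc
Pde4a: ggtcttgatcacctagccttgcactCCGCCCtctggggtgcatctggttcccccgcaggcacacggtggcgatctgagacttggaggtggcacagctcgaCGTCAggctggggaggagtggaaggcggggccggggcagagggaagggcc
All 10 genes matched, with 31 listed start sites in all. Some windows overlap, so the 31 are not all separate promoters. A GC box was found in 7 of the 31 windows, and in 28.6% of 32851 windows of the same length before the starts of all genes. Of the 7, 2 are overlapping windows of Pde8b that hold some of the same GC boxes. The half-site was found in 2 of the 31 windows, those of Pde4a shown here and of a Pde4b start, against 13.3% of all windows. The complete element TGACGTCA, which contains the half-site on both strands, was in none of the 31 and in 1.36% of all windows. The letters TATAAA (or TTTATA) were in 1 of the 31, before a start of Pde1a, and in 7.57% of all windows. The Pde10a, Pde1b and Pde4a windows shown held a GC box, and the Pde7b window held neither of the motifs marked. The Pde4a start is shown for its half-site, which the window before the first Pde4a start lacked, with GC boxes at 4 positions.

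Pde1b was the most abundant of the 10 in WT striatum, followed by Pde10a, and both stood well above the rest. The order of this pair holds per length and turns by CPM, which is not divided by length, with WT means of 881 for Pde1b and 1302 for Pde10a and exon lengths of 5396 and 12849 bases. Pde1b (ENSMUSG00000022489, chromosome 15 from 103503034 to 103530052 in GRCm38) had an FPKM of 175, 136, 208 and 129 in WT-1015, WT-1041, WT-1061 and WT-1063, a mean of 162 ± 36.7 (SD, n = 4 mice). Pde10a (ENSMUSG00000023868, chromosome 17 from 8525372 to 8986648) had 118, 85.4, 122 and 77.1 in the same mice, a mean of 101 ± 22.5 (SD, n = 4). Pde1b was above Pde10a in each of the 8 mice, by 0.84 ± 0.30 on the log2 scale of FPKM (SD, n = 8). Because the order was set on WT levels, it is given here as a description, by whether the ranges of neighbours over the WT mice overlap. Their mean FPKM over the 8 mice lay at the 99.6th percentile (Pde1b) and the 99.1th percentile (Pde10a) of 35741 genes with a count.

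Next came a group of genes with similar levels. Pde7b (ENSMUSG00000019990, chromosome 10 from 20398004 to 20725078), a cAMP-specific enzyme, had a mean FPKM of 21.2 ± 3.46 (SD, n = 4 WT mice). Pde10a was above it in all 8 mice, by 2.04 on the log2 scale, and their WT ranges did not overlap. Pde8b (ENSMUSG00000021684), a cAMP-specific enzyme with high affinity, had 18.5 ± 3.46, Pde4b (ENSMUSG00000028525) 18.04 ± 2.49, the calmodulin-dependent Pde1a (ENSMUSG00000059173) 16.4 ± 7.31 and Pde4a (ENSMUSG00000032177) 11.5 ± 1.19 (SD, n = 4 WT mice each). The WT ranges of neighbours in this group overlapped, though those of Pde7b, Pde8b and Pde4b all lay above the range of Pde4a. Pde4a was above Pde4d in all 8 mice, by 1.58 on the log2 scale, and here too the WT ranges were apart. The lowest 3 were Pde4d (ENSMUSG00000021699) with 3.53 ± 0.50, Pde2a (ENSMUSG00000110195) with 2.81 ± 0.95 and Pde1c (ENSMUSG00000004347) with 2.42 ± 0.56 (SD, n = 4 WT mice each), and their ranges overlapped too. By CPM, Pde1c had a WT mean of 48.9, above Pde4d with 42.7 and Pde2a with 17.4. The level of Pde2a is uncertain, because 64.3% of its exon bases also belong to Gm45837 on the same strand, and it would be too low if reads in the shared bases were left out of the counting, which was not tested. Gm45837 itself had at most 2 counts per mouse. Of Pde8b, 7.60% of the exon bases overlap Gm48420 on the opposite strand, and the strand setting of the counting is not given in the sources used here. The other 8 genes share no exon base with another gene.

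**Figure D1:**
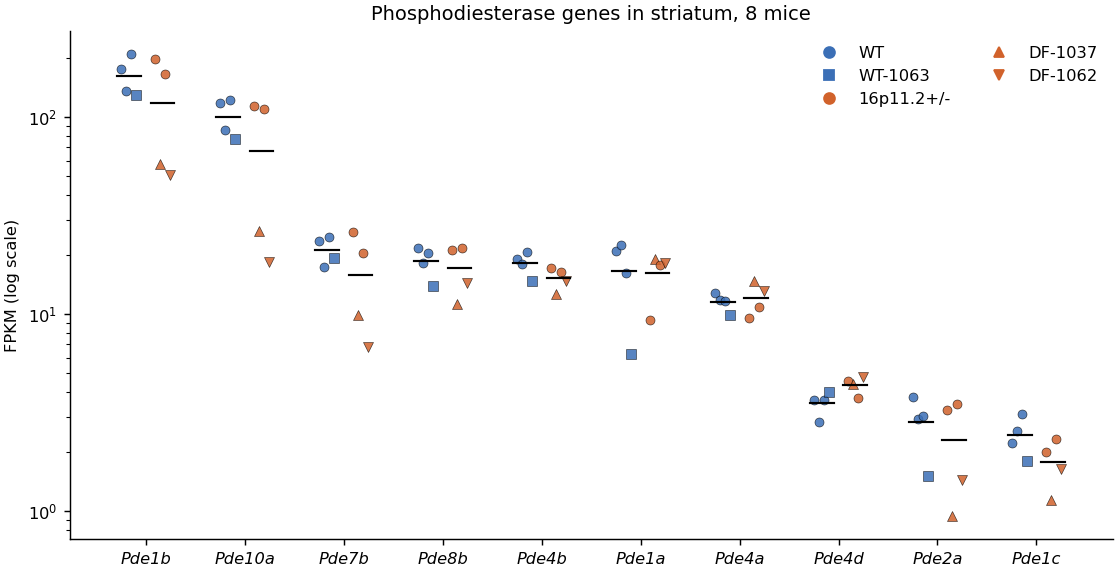
FPKM (log scale) of the 10 phosphodiesterase genes in each mouse, ordered by the WT mean, with 1 point per mouse and a bar at each group mean. For Pde1b, Pde10a and Pde7b the mice DF-1037 and DF-1062 (triangles) sit below all other mice, while for Pde4a they sit above them.

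In 16p11.2+/- striatum, the level of Pde1b was 196, 57.6, 165 and 50.5 FPKM in DF-1018, DF-1037, DF-1059 and DF-1062. For Pde10a it was 113, 26.3, 109 and 18.4, and for Pde7b it was 26.0, 9.88, 20.5 and 6.83. All 3 genes were low in DF-1037 and DF-1062, the mice with low MSN markers, and lay within or near the WT range in DF-1018 and DF-1059. Over the 8 mice the highest level was 6.60 times the lowest for Pde10a, 4.12 times for Pde1b and 3.81 times for Pde7b. Pde2a, with 3.80, 2.92, 3.02 and 1.51 FPKM in WT and 3.27, 0.94, 3.49 and 1.43 in 16p11.2+/- mice, also varied widely, and was about as low in WT-1063 as in DF-1062. Pde8b had 21.6, 18.03, 20.4 and 13.8 in WT and 21.2, 11.3, 21.7 and 14.4 in 16p11.2+/- mice. It was thus low in DF-1037, DF-1062 and WT-1063 and alike in the other 5. Pde4b had 19.0, 17.9, 20.6 and 14.7 in WT and 17.1, 12.6, 16.3 and 14.7 in 16p11.2+/- mice, a narrower range of 1.64 times. Pde4a had 12.7, 11.8, 11.6 and 9.86 in WT and 9.48, 14.6, 10.9 and 13.0 in 16p11.2+/- mice, and here DF-1037 and DF-1062 had the highest levels of the 8. Pde1a had 20.9, 22.4, 16.1 and 6.22 in WT and 9.33, 19.1, 17.7 and 18.1 in 16p11.2+/- mice, so that its low mice were WT-1063 and DF-1018. Pde4d had 3.65, 2.82, 3.63 and 4.01 in WT and 4.57, 4.42, 3.72 and 4.76 in 16p11.2+/- mice. Pde1c had 2.22, 2.55, 3.11 and 1.78 in WT and 1.98, 1.14, 2.32 and 1.63 in 16p11.2+/- mice. For all 10 genes the ranges of the groups overlapped.

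The make-up of the 10 transcripts differed between mice. Their summed FPKM was 400, 317, 433 and 277 in the WT mice and 403, 158, 371 and 144 in DF-1018, DF-1037, DF-1059 and DF-1062. Pde1b and Pde10a together made up between 69.8% and 76.2% of this sum in WT mice, 76.9% in DF-1018, 53.2% in DF-1037, 73.98% in DF-1059 and 47.96% in DF-1062. The 5 genes of enzymes that accept both nucleotides held between 77.7% and 81.3% in WT mice, 66.6% in DF-1037 and 62.7% in DF-1062, and the 5 cAMP-specific genes held the rest. The summed FPKM of the cAMP-specific genes was less variable, between 61.6 and 80.8 in WT mice, 52.7 in DF-1037 and 53.6 in DF-1062. Pde10a was lower relative to Pde1b in both of these mice. The ratio of Pde1b to Pde10a was between 1.48 and 1.73 in the other 6 mice, 2.19 in DF-1037 and 2.74 in DF-1062. Of the 9 pairs of neighbours in the WT order, all 9 kept their order in the mean of DF-1018 and DF-1059, and 5 kept it in that of DF-1037 and DF-1062, a comparison chosen after seeing the data. In the latter mice Pde1a was the third most abundant of the 10 and Pde7b the seventh.

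**Figure D2:**
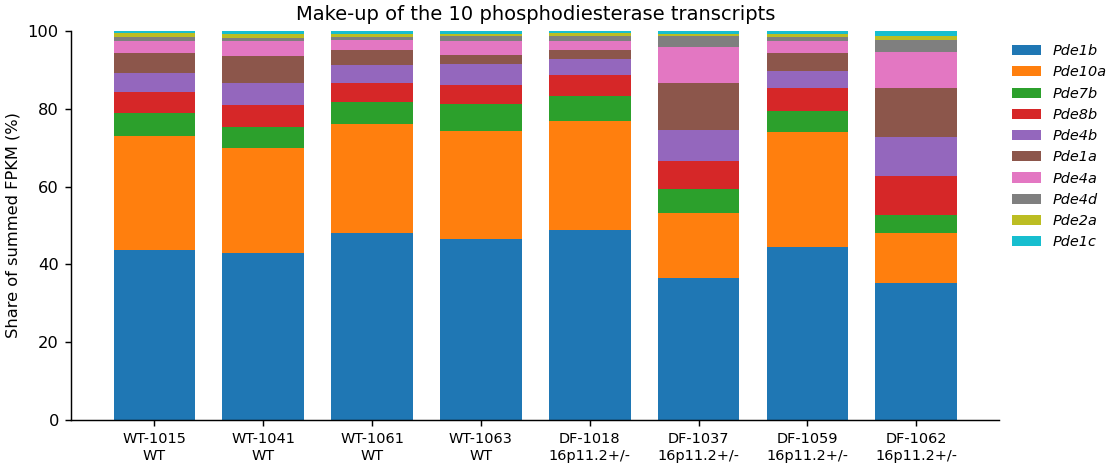
Share of each phosphodiesterase gene in the summed FPKM of the 10 (%), 1 bar per mouse. Pde1b and Pde10a fill at least 69.8% of the bar in 6 mice, and 53.2% and 47.96% in DF-1037 and DF-1062.

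To measure how the genes moved with the level of MSN markers, the counts of all genes were fitted with edgeR's quasi-likelihood test on genotype and the MSN score over the 8 mice. This test was chosen after seeing the data. Of the 10 phosphodiesterase genes 5 rose with the score (adjusted p under 0.05 over 18294 genes), against 5.29% of all genes in either direction and 3.97% that rose. Pde10a changed by 1.23 on the log2 scale per unit of the score (standard error 0.06, edgeR adjusted p = 6.7e-05). A value of 1 means that a gene changes by the same factor as the mean of the markers. Pde1b changed by 0.94 (standard error 0.05, edgeR adjusted p = 6.9e-05) and Pde7b by 0.81 (standard error 0.07, edgeR adjusted p = 0.00103). Pde2a changed by 0.82 (standard error 0.17, edgeR adjusted p = 0.0319) and Pde8b by 0.43 (standard error 0.08, edgeR adjusted p = 0.0245). These calls were less firm: with each mouse left out in turn, that of Pde2a was lost in 5 of 8 fits (without WT-1015, WT-1061, DF-1018, DF-1037 or DF-1059) and that of Pde8b in 4 (without WT-1015, WT-1061, DF-1018 or DF-1059), whereas Pde10a, Pde1b and Pde7b passed in all 8. The 3 PDE4 genes, Pde1a and Pde1c did not pass. The slope of Pde1c was 0.37 (edgeR adjusted p = 0.1204) and that of Pde4b was 0.21 (edgeR adjusted p = 0.105). Slopes of Pde4a, Pde1a and Pde4d were -0.15, -0.13 and -0.02, with 95% intervals that include 0, and all 3 were positive without DF-1037 and DF-1062 (0.30, 0.70 and 0.18).

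The low mice DF-1037 and DF-1062 carried much of the range of this score. Without them, none of 19092 genes tested passed (0%), the 10 phosphodiesterases included. At an unadjusted edgeR p under 0.05, 5 of the 10 (Pde10a, Pde1b, Pde4b, Pde7b and Pde8b) were counted over the remaining 6 mice, against 9.12% of all genes. In these 6 mice the slope was 0.98 (standard error 0.14) for Pde10a, 0.99 (standard error 0.15) for Pde1b and 0.74 (standard error 0.20) for Pde7b, close to the slopes with all 8 mice for Pde1b and Pde7b. Pde4b had 0.58 (standard error 0.15), above its slope of 0.21 over 8 mice. Relative to the mean log2 CPM of the MSN markers, the log2 CPM of Pde1b varied by 0.19 between its lowest and highest mouse, compared with 2.15 for Pde1b itself. For Pde10a the relative level varied by 0.70, with its lowest values in DF-1037 and DF-1062, compared with 2.83 for Pde10a itself. For Pde7b it varied by 0.61, compared with 2.05, and for Pde2a by 1.33, compared with 2.01. For the other 6 genes the relative level varied more than the level itself, as for Pde8b (1.57, compared with 0.97) and Pde4b (1.82, compared with 0.73).

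**Figure D3:**
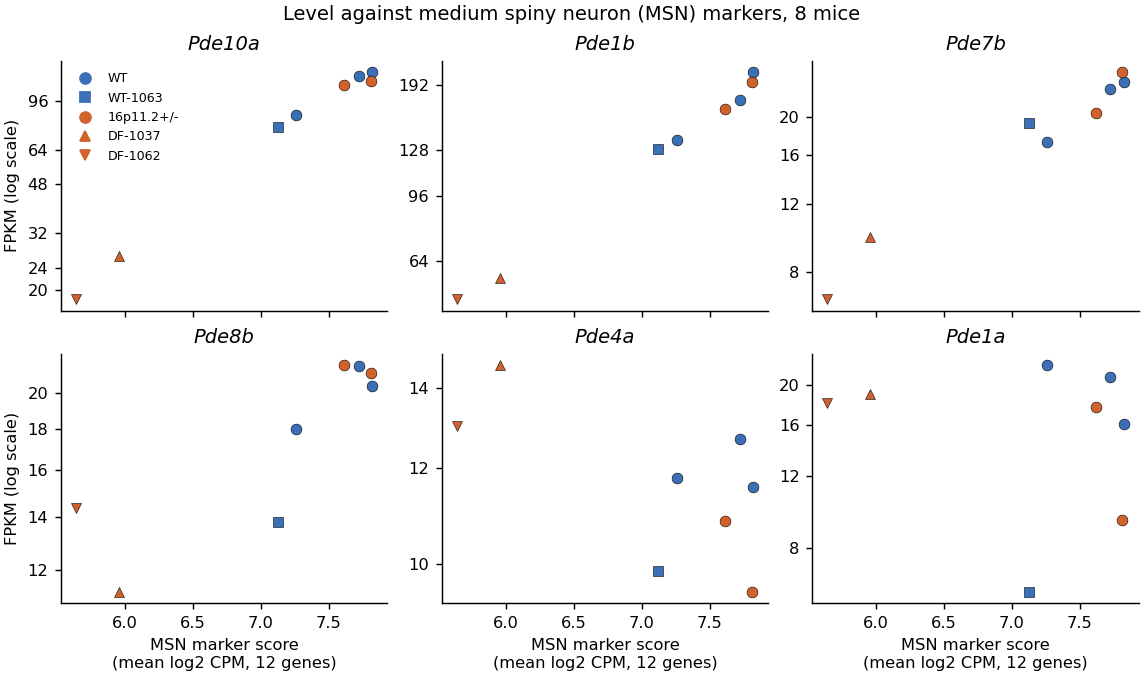
FPKM (log scale) of 6 phosphodiesterase genes against the MSN marker score (mean log2 CPM of 12 genes), 1 point per mouse. Points of Pde10a, Pde1b and Pde7b are lowest in DF-1037 and DF-1062, the mice with the lowest scores, whereas Pde4a is highest in them (14.6 and 13.0).

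Thalamic and cortical scores were fitted in the same way. With the thalamic score in place of the MSN score none of the 10 passed, against 1.02% of all genes. At an unadjusted edgeR p under 0.05, 5 of the 10 were counted (Pde1a, Pde1c, Pde2a, Pde4b and Pde8b, all lower with the score), against 13.2% of all genes. With the cortical score none of the 10 passed, against 0.317% of all genes. At an unadjusted edgeR p under 0.05, Pde1a (0.33 per unit) and Pde4a (0.11 per unit) were counted, against 6.36% of all genes. Pde1a was lowest in WT-1063 and DF-1018, whose cortical scores were 2.36 and 1.77, but it was at 18.1 FPKM in DF-1062, whose score was 2.39. The part of cortical or thalamic tissue in these levels was not tested.

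**Figure D4:**
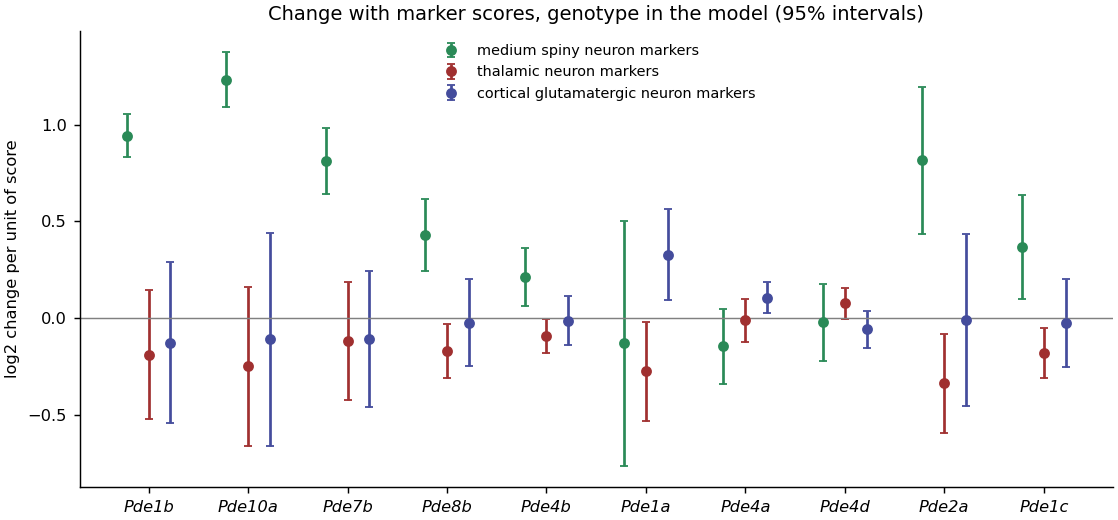
Log2 change of each phosphodiesterase gene per unit of 3 marker scores (edgeR, genotype in the model, 8 mice), with points for the estimate and bars for the 95% interval. The MSN slopes of Pde1b, Pde10a, Pde7b, Pde8b and Pde2a lie above 0 and passed the adjusted threshold, while none of the thalamic and cortical slopes passed it.

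The comparison that the study design poses is that of 16p11.2+/- with WT striatum. None of the 10 genes passed the edgeR test adjusted over 18294 genes, of which 0.109% (20 genes) did, and none passed with DESeq2 or limma. The largest estimate was that of Pde10a, with a log2 fold change of -0.59 (standard error 0.57, 95% interval from -1.89 to 0.71, edgeR adjusted p = 0.864). For Pde1b it was -0.47 (standard error 0.45, edgeR adjusted p = 0.864) and for Pde7b -0.43 (standard error 0.40, edgeR adjusted p = 0.861). These intervals are wide, and a change of either direction lies within them. The median over the 10 genes was -0.29, compared with -0.01 over all genes tested, and 8 of the 10 estimates were negative. Without DF-1037 and DF-1062 the median was 0.15, and the estimates were 0.15 for Pde10a, 0.17 for Pde1b and 0.14 for Pde7b, so the sign of the difference rested on these mice. With the MSN score in the model the estimate was -0.12 (standard error 0.09) for Pde10a, -0.02 (standard error 0.08) for Pde1b and -0.03 (standard error 0.12) for Pde7b.

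Among the other members, Pde4d had the only unadjusted edgeR p under 0.05, which 4.32% of all genes had. Its FPKM was 3.53 ± 0.50 in WT and 4.37 ± 0.45 in 16p11.2+/- striatum (SD, n = 4 each), with a log2 fold change of 0.29 (standard error 0.12, edgeR adjusted p = 0.859). The exact permutation test of its FPKM gave p = 0.0571 (two-sided, 0.889 after adjustment over all genes). Without DF-1037 and DF-1062 its log2 fold change was 0.24. Pde4b and Pde1c were below the WT mean in each of the 4 16p11.2+/- mice, with log2 fold changes of -0.27 (standard error 0.14) and -0.47 (standard error 0.24), but neither passed (edgeR adjusted p = 0.859 for both). Without DF-1037 and DF-1062 these were -0.11 and -0.16. Pde8b, Pde1a, Pde4a and Pde2a had log2 fold changes of -0.13, -0.06, 0.04 and -0.31, none of which passed. Without DF-1037 and DF-1062 they were 0.22, -0.28, -0.17 and 0.27, so that the sign turned for Pde8b, Pde4a and Pde2a. The FPKM ranges of the groups did not overlap for 2.83% of all genes tested and for none of the 10. The smallest exact p that 4 mice against 4 allow is 0.0286, and no gene of the whole table passed after adjustment (smallest adjusted p = 0.889).

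**Figure D5:**
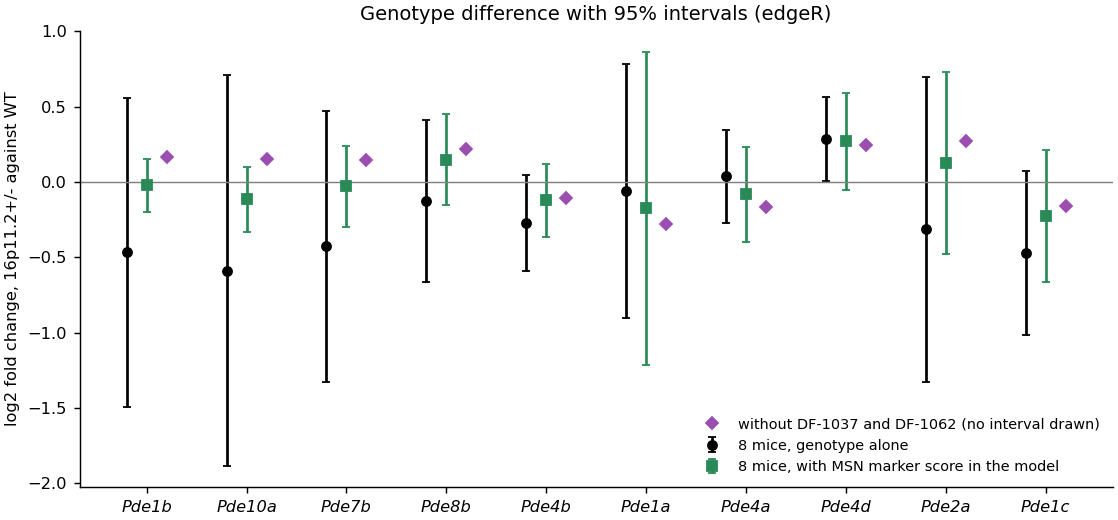
Log2 fold change of each phosphodiesterase gene, 16p11.2+/- against WT, from edgeR with genotype alone (circles, 95% intervals), with the MSN score in the model (squares, 95% intervals) and without DF-1037 and DF-1062 (diamonds). The estimates of Pde1b, Pde10a and Pde7b are between -0.59 and -0.43 over 8 mice and between 0.14 and 0.17 without those mice.

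Among the 14 other phosphodiesterase genes of the list, none came near the levels of Pde1b and Pde10a. The most abundant were Pde6d, whose product binds prenylated proteins, with an FPKM of 11.8 ± 0.60 in WT, Pde8a with 11.23 ± 1.18, the cGMP-specific Pde9a with 6.81 ± 1.16 and Pde7a with 4.68 ± 0.35 (SD, n = 4 each). Pde3b had 2.07 ± 0.29, Pde3a 1.21 ± 0.14, the cGMP-specific Pde5a 0.94 ± 0.22, Pde4c 0.76 ± 0.02 and Pde11a 0.37 ± 0.10 (SD, n = 4 WT mice each). Pde6a, Pde6b, Pde6c, Pde6g and Pde6h, photoreceptor genes, were at most 0.25 FPKM in any mouse and had too few counts to be tested. None of the 9 genes tested passed for genotype (0.109% of all genes did), the MSN score (5.29%), the thalamic score (1.02%) or the cortical score (0.317%). Pde8a, the closest relative of Pde8b, had an MSN slope of 0.02 (edgeR adjusted p = 0.891), and together the 10 members held between 87.3% and 91.2% of the summed FPKM of all 24 genes in WT mice.

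On the side of synthesis, 21 genes of adenylyl and guanylyl cyclases, natriuretic peptide receptors and nitric oxide synthase were listed and 19 tested. None passed for genotype, against 0.109% of all genes. Adcy5, the main adenylyl cyclase of MSNs, was the most abundant, with an FPKM of 153, 125, 173 and 114 in WT and 177, 56.5, 166 and 50.6 in 16p11.2+/- mice. It was low in the same mice as Pde1b, and its MSN slope was 0.90 (standard error 0.05, edgeR adjusted p = 6.7e-05). Gucy1b1 (56.5 ± 6.17 FPKM in WT, SD, n = 4) and Adcy1 (35.0 ± 5.97) came next. With the MSN score, compared with 3.97% of all genes that rose and 5.29% in either direction, 4 of the 19 rose (Adcy5, Adcy9, Gucy1a1 and Gucy1b1, the latter pair the subunits of soluble guanylyl cyclase) and 2 fell (Adcy6 and Npr2). Gucy1a1 passed narrowly (edgeR adjusted p = 0.0430). The median slope of the 19 was -0.16, compared with -0.01 over all genes tested.

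Effectors of the nucleotides were listed as 21 genes, of which 17 were tested and none passed for genotype, against 0.109% of all genes. The most abundant were Ppp1r1b, the gene of the MSN phosphoprotein DARPP-32 (279 ± 63.3 FPKM in WT), Prkar1a (168 ± 5.43), a regulatory subunit of protein kinase A, and Rapgef4 (114 ± 19.3; SD, n = 4 each). With the MSN score, against the same 3.97% that rose and 5.29% in either direction, 3 of the 17 rose (Ppp1r1b by 1.22 per unit, Arpp21 by 1.01 and Bves by 0.65), and 2 regulatory subunits of protein kinase A fell (Prkar1b with a slope of -0.33 and Prkar2a of -0.32). The median slope was 0.03. Bves and Prkar1b passed narrowly (edgeR adjusted p = 0.0436 and 0.0435). Without DF-1037 and DF-1062 the slope was 1.29 (standard error 0.44) for Bves and -0.10 (standard error 0.25) for Prkar1b. For Prkar2a it was -0.53 (standard error 0.13). With the thalamic score, 1 of the 17 passed, against 1.02% of all genes. This was Prkg2, a cGMP-dependent protein kinase (0.38 per unit, edgeR adjusted p = 0.00361), and without WT-1063 no gene of the table passed in edgeR, with 924 at an unadjusted p under 0.05. Of a list of 10 genes, made up of 9 G protein subunits and the chaperone Ric8b, 3 rose with the MSN score, against 3.97% of all genes. Gng7, a gamma subunit, had a slope of 1.10 (edgeR adjusted p = 6.1e-05), Gnal, the alpha subunit that stimulates cyclase in MSNs, 0.53 (edgeR adjusted p = 0.000513) and Ric8b 0.41 (edgeR adjusted p = 0.0270). Gng7 (205 ± 47.3 FPKM in WT), Gnb1 (136 ± 5.16) and Gnal (114 ± 13.3; SD, n = 4 each) were the most abundant of this list. The genes named for their relation to a score were picked with their values known.

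The genes outside the family whose pattern over the 8 mice was most like that of the 3 most abundant members were found by the root mean square difference in log2 CPM, each gene centred on its own mean, among 8972 genes. For Pde1b they were Rem2 (0.07), Ccdc88c (0.07) and Kcnab1 (0.08). For Pde10a they were Drd2, the dopamine D2 receptor (0.09), Rasd2 (0.09) and Ppp1r1b (0.10), of which Drd2 and Rasd2 are among the MSN markers. For Pde7b they were an unnamed gene of the authors' annotation (0.08), Kcnj2 (0.12) and Slc35d3 (0.12). The median difference of all compared genes was 0.78 from Pde1b, 1.03 from Pde10a and 0.69 from Pde7b. Among the members themselves, Pde7b was nearer to Pde1b (0.16) than Pde10a was (0.28), and Pde1a was farthest from it (1.05), with Pde2a not compared for its low count. All points share the same 8 libraries, so these values describe the mice and carry no test.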

How the data were processed

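Total RNA of striatum from 4 WT and 4 16p11.2+/- mice was sequenced for the authors by a company, with paired ends. The authors filtered low quality and adapter sequences, mapped reads with Hisat2 and deposited raw counts per gene from Htseq-count, and FPKM per gene. On 17097 genes the deposited FPKM was checked to be the count over a constant length of the gene and the library total, and 97.5% of 35149 lengths were within 0.5% of those of GENCODE M21 (GRCm38). The submitters' processing notes also name Bowtie 0.12.2 and the builds mm8 and mm9, with no role given. The annotation and the strand setting are not given in the sources used here. Deposited columns of the authors' own comparison (group signal, fold change, p-value, adjusted p-value) and a binned FPKM summary were not used.

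The quasi-likelihood test of edgeR 4.0.16 (R 4.3.3) was applied to the counts after TMM normalization. Genes were kept by filterByExpr (minimum count 10, minimum total 15), and p-values were adjusted by Benjamini-Hochberg over the 18294 genes kept, with a threshold of 0.05. Marker scores averaged log2 CPM (prior count 2) over the genes of a list and entered as a covariate beside genotype. FPKM was compared with exact permutation tests over 70 assignments of the mice. Alternatives were DESeq2 1.42.0, limma 3.58.1 on log2(FPKM + 1) and log2(FPKM + 0.1), RLE factors, library totals, other filters, score covariates and leaving out each mouse. Simulated data, in which 200 genes were changed, served to test the code. The members, gene lists and marker lists were chosen with earlier results of these data known. Named were the 10 members and the rest of the family. For the synthesis, effector and G protein lists these were the 3 most abundant genes and those that passed with a score, and Gnas for its exon overlap. Of the deleted segment genes and the markers, examples were named, among them the most abundant MSN, thalamic, cortical and choroid plexus markers. The 3 genes most like each of the 3 most abundant members (mean log2 CPM of at least 4) were also named. Of the listed genes, 1 short list is not reported here. The MSN score as a tested term and the fits without DF-1037 and DF-1062 were added after seeing the data.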

Additional observations from a re-analysis of the deposited data

Results flagged for a closer look

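Within 28 groups of 4 mice, which were the 10 members, their summed FPKM and the scores of MSNs, thalamic neurons and cortical neurons in each genotype, a mouse far from the others of its group was looked for with Dixon's ratio (gap to the nearest mouse divided by the range). It was above the 95% critical value in 2 groups, and chance gives about 1 in 20. The level of Pde1a in DF-1018 was 9.33 FPKM, compared with 17.7 to 19.1 in the other 16p11.2+/- mice (ratio 0.864). The thalamic neuron score of WT-1063 was 6.46, compared with 2.33 to 2.80 in the other WT mice (ratio 0.886). Pde1a had its lowest level of the 8 mice, 6.22 FPKM, in the same WT-1063.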

How the results depend on the processing

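No paired analysis was possible because WT and 16p11.2+/- mice carry different numbers. No member passed for genotype under any alternative. Without DF-1037 and DF-1062 the members' median log2 fold change turned from -0.29 to 0.149, and 11 genes of the table passed in place of 20 (10 with the thalamic score as a covariate, 8 to 18 when leaving out a mouse). The log2 fold change without DF-1037 and DF-1062, and then also without WT-1063, was 0.167 and 0.0674 for Pde1b, 0.153 and 0.0419 for Pde10a, 0.144 and 0.0975 for Pde7b, 0.219 and 0.0985 for Pde8b, 0.270 and 0.0606 for Pde2a, and -0.169 and -0.240 for Pde4a. With the MSN score as a covariate it was 0.149 for Pde8b, 0.127 for Pde2a and -0.0829 for Pde4a. With the thalamic score it was 0.161 for Pde8b, 0.253 for Pde2a and 0.583 for Pde1a. Pde1a also had 0.259 with the cortical score and 0.0567 and 0.0689 with limma on log2(FPKM + 1) and log2(FPKM + 0.1). With each mouse left out, values ranged from -0.257 to 0.0312 for Pde8b, -0.332 to 0.128 for Pde1a and -0.0719 to 0.132 for Pde4a, and kept their sign for the other 7 members.

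The genes that passed with the MSN score numbered 968, 1612 with DESeq2, 1941 without genotype in the model, 193 to 1446 with a mouse left out and 0 without DF-1037 and DF-1062. Of the members 3 to 5 passed with a mouse left out (3 without WT-1015, WT-1061, DF-1018 or DF-1059) and 0 without DF-1037 and DF-1062, where the slopes of Pde1a, Pde4a and Pde4d were 0.699, 0.295 and 0.178. With a mouse left out the MSN slope ranged from -0.295 to 0.112 for Pde1a and from -0.115 to 0.0361 for Pde4d. With the thalamic score 186 genes passed, 583 with DESeq2, 306 without genotype and 0 to 257 with a mouse left out, where 0 to 1 member passed and the slope of Pde4a ranged from -0.0512 to 0.0973. With the cortical score 58 genes passed, 228 with DESeq2, 20 with at least 10 counts in every mouse and 23 to 94 with a mouse left out. Cortical slopes without genotype were 0.0191 for Pde4b, 0.0450 for Pde2a and 0.0389 for Pde1c. With a mouse left out they ranged from -0.248 to 0.111 for Pde1b, -0.244 to 0.186 for Pde10a, -0.199 to 0.110 for Pde7b, -0.128 to 0.135 for Pde8b, -0.0832 to 0.0650 for Pde4b, -0.204 to 0.288 for Pde2a and -0.132 to 0.141 for Pde1c. The cause of these shifts was not tested. Of the 9 pairs of neighbours, 7 to 9 kept the WT order with a WT mouse left out, 6 did by CPM and 5 in DF-1037 and DF-1062. The depth of these libraries left Pde2a with at least 89 counts per mouse and tested all 10 members.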
